A study of Mus musculus with 12 samples.

Results

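Transcripts of the Egr and Nr4a families were followed in the mouse uterus 2 h after estradiol (E2). The members were 7 genes, Egr1, Egr2, Egr3, Egr4, Nr4a1, Nr4a2 and Nr4a3, taken as every array probe whose gene name, or the current symbol of whose accession, was a family member. They had 8 of the 41174 probes on the array and 17 of the 43379 spots that were no controls. Egr2 had 10 spots, Egr3 a pair of different probes, and every other gene a probe with 1 spot. Of the 7 genes, 6 were among the 19301 genes tested, and Nr4a3 was not, since its probe was not well above background on any array. The rule reads gene names only, and the families were picked with earlier results of these data known.

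The animals were adult ovariectomized female mice of mixed C57bl6/J and 129 background, at least 10 weeks old and left for 10 to 14 days after surgery. WT saline and WT E2 are wild-type mice given 100 ul of saline or of E2, and EAAE saline and EAAE E2 are mice of the Esr1 genotype EAAE given the same. Per the series title, EAAE is an estrogen receptor alpha that is deficient in DNA binding. The dose of E2 and the zygosity of EAAE are not given in the sources used here. Each group held 3 mice, with 1 uterus per single-colour Agilent array, and the arrays are named here by group and the number the labels give them. The p-values therefore measure the spread between mice of 1 experiment. RNA came from the whole uterus, so fewer cells of a type and less RNA per cell cannot be told apart. The comparisons ask which of these early responses to E2 occur with a receptor that is deficient in DNA binding.

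Egr proteins are zinc finger transcription factors that bind GC-rich sites, and Nr4a proteins are orphan nuclear receptors that act without a known natural ligand, as monomers, dimers or partners of retinoid X receptors. Both families are immediate early genes: their transcription starts within minutes of a signal from factors already in the cell, needs no new protein and is soon shut off. Serum response factor bound at CArG boxes, with its partners of the Elk family that are activated by ERK kinases, is the textbook route to the Egr genes. CREB bound at cAMP response elements (CREs), together with calcium-activated factors, is a textbook route to the Nr4a genes. Most effects of estradiol in the uterus go through estrogen receptor alpha. It can sit on estrogen response elements (EREs), tether to other DNA-bound factors or act on kinases. Egr1 has been studied there in the decidualization of stromal cells.

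Promoters are shown because these routes meet in the DNA just before the start of transcription, and because the members with a measured level moved together. RefSeq entries (GRCm38.p6) matched 5 of the 7 genes. Egr1 and Egr3 had no entry. The 250 bases before the annotated start are given 5′ to 3′ on the strand of the gene, in lower case, with capitals for CRE cores and CArG boxes. Egr2 had 5 entries with different starts, and the third by position is shown. The windows are chr10:67537619-67537868 (+) for Egr2, chr6:85513590-85513839 (-) for Egr4, chr15:101266596-101266845 (+) for Nr4a1, chr2:57124004-57124253 (-) for Nr4a2 and chr4:48045055-48045304 (+) for Nr4a3.
Egr2: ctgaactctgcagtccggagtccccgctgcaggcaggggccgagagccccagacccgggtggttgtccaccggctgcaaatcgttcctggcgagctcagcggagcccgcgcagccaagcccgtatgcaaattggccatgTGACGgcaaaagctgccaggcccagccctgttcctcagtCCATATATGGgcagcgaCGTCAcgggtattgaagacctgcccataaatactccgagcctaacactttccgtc
Egr4: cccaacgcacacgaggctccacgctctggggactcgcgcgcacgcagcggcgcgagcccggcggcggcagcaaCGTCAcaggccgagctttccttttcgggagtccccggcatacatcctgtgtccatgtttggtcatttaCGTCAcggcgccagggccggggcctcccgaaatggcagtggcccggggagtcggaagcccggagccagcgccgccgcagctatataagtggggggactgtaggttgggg
Nr4a1: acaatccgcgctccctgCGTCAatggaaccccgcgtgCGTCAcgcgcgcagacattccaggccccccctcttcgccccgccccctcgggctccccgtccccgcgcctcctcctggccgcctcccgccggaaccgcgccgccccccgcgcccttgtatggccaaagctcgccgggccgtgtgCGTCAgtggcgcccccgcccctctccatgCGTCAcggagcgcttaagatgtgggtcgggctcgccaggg
Nr4a2: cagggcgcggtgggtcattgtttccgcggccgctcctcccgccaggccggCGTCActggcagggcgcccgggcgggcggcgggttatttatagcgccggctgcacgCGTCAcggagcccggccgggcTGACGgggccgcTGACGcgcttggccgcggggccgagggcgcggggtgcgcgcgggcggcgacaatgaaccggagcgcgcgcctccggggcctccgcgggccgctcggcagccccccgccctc
Nr4a3: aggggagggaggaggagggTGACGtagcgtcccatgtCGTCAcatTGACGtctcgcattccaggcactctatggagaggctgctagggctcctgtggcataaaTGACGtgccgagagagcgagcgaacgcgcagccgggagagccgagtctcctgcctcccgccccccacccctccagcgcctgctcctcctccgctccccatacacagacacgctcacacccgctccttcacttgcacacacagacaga

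Each of these 5 windows held the CRE core TGACG, read on both strands. It occurred 2 times before Egr2, 2 times before Egr4 and 4 times before each of Nr4a1, Nr4a2 and Nr4a3. Over all 32851 promoter windows of the same length, 17.8% held this core, 3.9% held it at least 2 times and 0.137% at least 4 times. Base composition differed as well: the 5 windows were 61.6 to 80% G and C, against a median of 52.4% over all windows. The full CRE TGACGTCA, present in 1.55% of all windows, was in none of the 5. A CArG box stood in the printed Egr2 window only, 72 to 63 bases before its start with the letters CCATATATGG, and 1.47% of all windows held such a box. Of the 5 Egr2 entries, 3 with nearby starts, the printed 1 included, held the same box and both cores, 1 held another CArG box and no core, and 1 held none of the motifs searched.

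The full ERE, the core GGTCA followed after 3 bases by its reverse complement, was in none of the members' windows and in 0.0639% of all windows. The ERE core GGTCA, which 35.2% of all windows held, occurred 1 time before Egr4 and 1 time before Nr4a2. The G form of the Egr site, GCGGGGGCG (2.57% of all windows), stood before Nr4a1, 60 to 52 bases from its start on the other strand. The T form GCGTGGGCG (0.536%), the Nr4a site AAAGGTCA (1.34%) and the AP-1 site TGANTCA (6.75%) were in none. The letters TATAAA (12.4% of all windows) were found on the other strand before Nr4a2. The ERE core is part of the Nr4a site and of the full ERE, and the CRE core is part of the full CRE. These are matches of letters in a short window and show no bound factor.

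**Figure D1:**
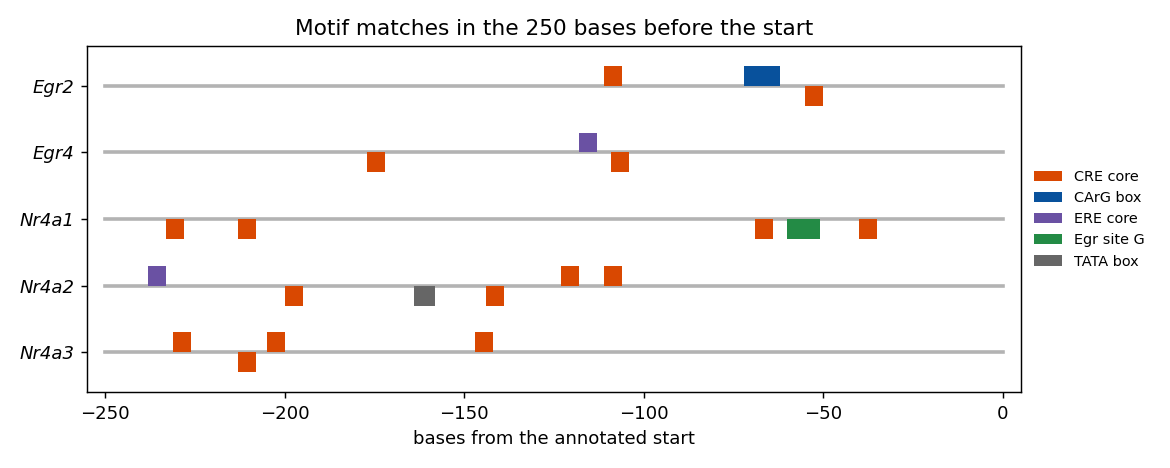
Positions of the motif matches in the 250 bases before the annotated start of 5 members, in bases from the start. Boxes above a line are matches on the gene's strand and boxes below it are matches on the other strand. CRE cores occur 2 times before Egr2 and Egr4 and 4 times before Nr4a1, Nr4a2 and Nr4a3, and the only CArG box shown is that of Egr2.

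Arrays were similar in quality: 63.39 to 73.6% of the probes were well above background on each, and 3 to 5 spots per array were saturated, none of them a member's. Levels are given as log2 of the deposited processed intensity minus the 75th percentile of the array (an intensity of 1324.4 to 1851.8). A level of 0 therefore means as bright as that percentile, and 1 unit is a 2-fold difference. All 13 markers of uterine epithelium, stroma and smooth muscle were well above background on every array. Under saline, the brighter Esr1 probe was log2 0.40 higher in EAAE (SE 0.09, adjusted p = 0.00962, limma), but a dimmer probe gave -0.30. The arrays lay on 3 slides, each with 3 or 4 of the groups, and all 3 EAAE E2 arrays held the fourth position of their slide.

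In the WT uterus, E2 raised all 6 members tested within 2 h, and in the EAAE uterus it raised none of them past the threshold. Nr4a1 rose 15.9-fold, Egr3 18.7-fold, Egr1 7.92-fold, Nr4a2 3.65-fold and Egr2 3.55-fold in WT. Egr4 rose at least 68.0-fold, a bound that depends on the background level and the processing, as described below. The threshold was an adjusted p of 0.05 in limma's moderated test, fitted over all 12 arrays with Benjamini-Hochberg adjustment over the 19301 genes. Of all genes tested, 19.5% rose and 29.9% fell in WT (49.4% in either direction), with a median change of log2 -0.15. With the array median subtracted instead, that median was -0.01, and the 3756 genes that rose and 5773 that fell became 4537 and 3939. In EAAE, 0.689% rose and 0.715% fell (1.40%), with a median of 0.03, and the array median turned 133 and 138 genes into 127 and 75. At 0.689%, a count of 0 risen members in EAAE is near the background and is no result about the members. Egr4 entered the test through its WT E2 arrays alone, so its rise was bound to show. For the other 5 members the WT E2 arrays lay above every WT saline array, as they did for 24.7% of all genes. They lay above every EAAE array too, and the share of all genes for which both hold was not counted.

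Markers of other cells moved with the same comparison. Of 7 adipocyte markers, 6 fell on E2 in WT (median -3.46), where 29.9% of all genes fell, and none passed the threshold in EAAE. For the response difference none of the 7 passed either. After E2 all 7 were higher in EAAE than in WT (median 3.69), where 33.0% of all genes were higher. Their summed level was 20.2 to 143 in WT saline, 2.61 to 17 in WT E2, 25.2 to 128 in EAAE saline and 42.8 to 181 in EAAE E2, with 6 of 7 well above background on the WT E2 arrays and 7 of 7 on the others. Of 8 endothelial markers, 5 fell on E2 in WT and none in EAAE. Their response difference was positive and past the threshold for 5, where 22.7% of all genes were. Their sums were 35.5 to 40.9, 23.9 to 25, 30 to 33.2 and 34.4 to 38.6 in the same order of groups. With 1.40% of all genes passing in EAAE, a count of 0 there is near the background for either list and is no result about it. The part of either cell type in the members' responses was not tested.

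**Figure D2:**
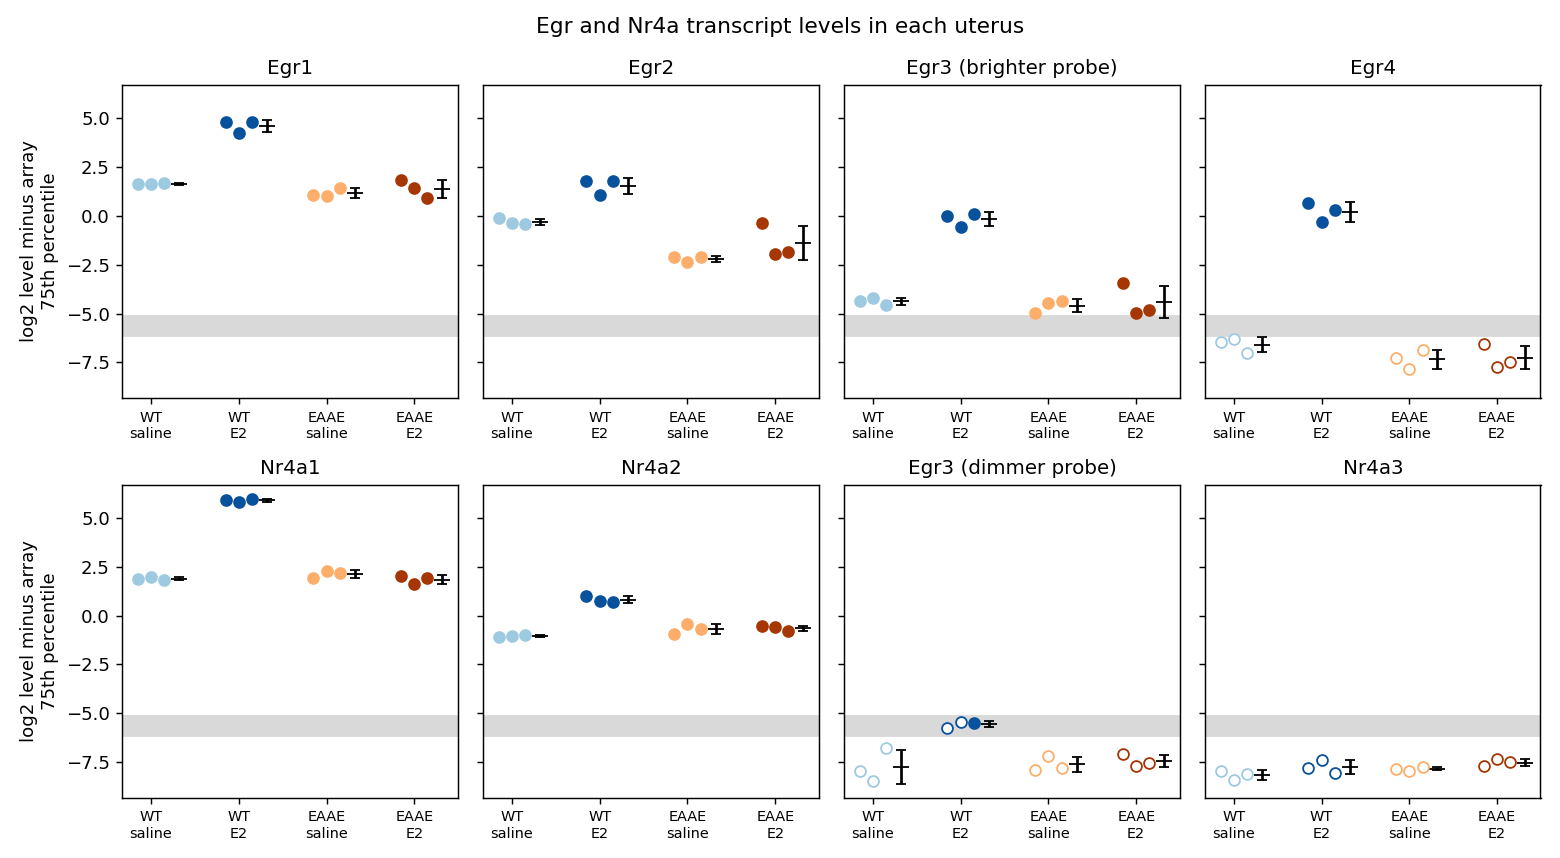
Log2 level minus the array's 75th percentile for each uterus, by group, for the 8 probes of the 7 genes. Filled points were well above background and open points were not. Black marks are group means with SD (n = 3), and the grey band spans, over the arrays, the lowest level of any probe well above background. The WT E2 arrays stand above the other 9 for Egr1, Egr2, Egr3, Egr4, Nr4a1 and Nr4a2, and the Nr4a3 points are open in all 4 groups.

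Nr4a1, also called Nur77, is the family member best known for rapid induction by growth factors and for roles in apoptosis and metabolism. Its probe (mm7, chr15:101260484-101260543, + strand) gave levels of 1.85, 2.00 and 1.84 in WT saline replicates 1, 2 and 3 and of 5.89, 5.81 and 5.97 in WT E2. In EAAE saline the levels were 1.93, 2.29 and 2.18, and in EAAE E2 they were 2.02, 1.62 and 1.90. The WT E2 arrays stood apart from the other 9, which spread over less than 1 unit. The WT change was log2 3.99 (SE 0.12, adjusted p = 2.28e-08), from a mean intensity of 5826.6 to 98502.7. In EAAE the change was -0.28 (95% interval -0.56 to -0.01, adjusted p = 0.287), and the groups overlapped. The responses differed by -4.28 (EAAE minus WT, SE 0.17, adjusted p = 4.85e-07).

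Nr4a2, or Nurr1, is best known for the development of dopamine neurons. The levels at its probe (chr2:57108976-57109035, - strand) were -1.12, -1.05 and -0.99 in WT saline and 1.02, 0.73 and 0.69 in WT E2. They were -0.92, -0.44 and -0.69 in EAAE saline and -0.55, -0.59 and -0.80 in EAAE E2. WT E2 was again the only group above all others, and every EAAE array was above every WT saline array. The share of all genes with either pattern was not counted. Under saline alone, 22.4% of all genes lay apart on the higher side in EAAE. The WT rise of Nr4a2 was 1.87 (SE 0.13, adjusted p = 2.63e-06), and its EAAE change was 0.03 (95% interval -0.27 to 0.33, adjusted p = 0.925). The difference between the responses was -1.84 (SE 0.19, adjusted p = 6.82e-05).

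Nr4a3, or Nor1, the third receptor of the family, gave no signal that could be read. Its probe is printed because the absence of a value rests on it, and it is 60 bases long while its ends lie 3187 bases apart on the genome (chr4:48081632-48084818, mm7, + strand), so that it crosses an intron.
Nr4a3 probe: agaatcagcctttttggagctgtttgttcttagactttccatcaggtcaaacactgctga

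The levels of Nr4a3 were -7.96, -8.43 and -8.08 in WT saline and -7.82, -7.37 and -8.07 in WT E2. They were -7.83, -7.93 and -7.77 in EAAE saline and -7.69, -7.36 and -7.51 in EAAE E2. All 12 were below the lowest level at which any probe counted as well above background (-6.14 to -5.14 over the arrays), so the groups have no fold. In a fit without the filter on dim probes, its WT change was 0.40 (95% interval -0.01 to 0.81, adjusted p = 0.127) and its EAAE change 0.32 (adjusted p = 0.542). The printed Nr4a3 promoter window held as many CRE cores as those of Nr4a1 and Nr4a2.

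Egr1, the best studied of the Egr factors, gave levels of 1.61, 1.61 and 1.67 in WT saline and of 4.78, 4.26 and 4.80 in WT E2 (probe at chr18:35240842-35240901, mm7, + strand). The EAAE saline levels were 1.08, 1.0 and 1.45, and the EAAE E2 levels 1.81, 1.42 and 0.92. All EAAE saline arrays lay below all WT saline arrays, as for 24.7% of all genes, while the EAAE groups overlapped each other. Egr1 rose by 2.99 in WT (SE 0.22, adjusted p = 3.33e-06). In EAAE it moved by 0.21 (95% interval -0.29 to 0.70, adjusted p = 0.688), and the responses differed by -2.78 (SE 0.32, adjusted p = 0.000121).

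Egr3, known for its part in lymphocyte and muscle spindle development, had probes of unequal brightness. The brighter (chr14:64726656-64726715, mm7, + strand) gave -4.35, -4.22 and -4.55 in WT saline and 0.00, -0.55 and 0.12 in WT E2. In EAAE saline it gave -4.99, -4.48 and -4.35, and in EAAE E2 -3.44, -4.98 and -4.80. The WT E2 arrays stood alone, and EAAE E2 replicate 1 was the highest of the others. The WT change was 4.23 (SE 0.36, adjusted p = 8.02e-06), the EAAE change 0.20 (95% interval -0.60 to 1.0, adjusted p = 0.828) and the difference between them -4.03 (SE 0.51, adjusted p = 0.000234). The dimmer probe (chr14:64723504-64723563) was well above background on 1 array, WT E2 replicate 3, and was not tested. Its levels were -5.73, -5.45 and -5.51 in WT E2 and -8.45 to -6.78 on the other 9 arrays, so it was also highest in WT E2.

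Egr4, first described in neurons and needed for male fertility, was well above background only on the WT E2 arrays (probe at chr6:85540804-85540863, mm7, - strand). There its levels were 0.66, -0.33 and 0.28. The other levels were -6.45, -6.31 and -7.01 in WT saline, -7.28, -7.84 and -6.87 in EAAE saline, and -6.57, -7.71 and -7.48 in EAAE E2. With 9 arrays that give bounds only, E2 raised Egr4 at least 68.0-fold in WT, and after E2 it was at least 50-fold lower in EAAE than in WT. These folds set the mean of the WT E2 arrays against, per array, the lowest level of any probe well above background or the Egr4 probe's own level where that was higher. They depend on this choice of background level and on the processing. Over the alternatives the fitted WT change went down to 4.32. The fitted difference between the responses, -6.72 (SE 0.52, adjusted p = 1.06e-05), also rests on the 9 arrays below background and is no measured fold.

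Egr2, or Krox20, directs myelination by Schwann cells and acts in macrophages and T cells. Its levels, means of 10 spots per array (probe at chr10:67145376-67145435, mm7, + strand), were -0.12, -0.39 and -0.41 in WT saline and 1.77, 1.05 and 1.76 in WT E2. They were -2.12, -2.36 and -2.12 in EAAE saline and -0.37, -1.95 and -1.83 in EAAE E2. The SD between spots of an array, which leaves out the spread between mice, was 0.041 to 0.064, and the SD between the 3 mice of EAAE E2 was 0.88. Every EAAE saline array was below every other array, and the share of all genes for which this holds was not counted. Against WT saline alone, 24.7% of all genes lay apart on the lower side. EAAE E2 replicate 1 stood 1 unit or more above the other EAAE arrays, near the WT saline level. Egr2 rose by 1.83 in WT (SE 0.36, adjusted p = 0.00199).

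In EAAE, Egr2 moved by 0.82 (95% interval 0.01 to 1.63, adjusted p = 0.304), or 0.31 without EAAE E2 replicate 1 (adjusted p = 0.499). The 3 E2 arrays lay above the 3 saline arrays, as for 9.95% of all genes. The difference between its responses was -1.01 (95% interval -2.16 to 0.14, adjusted p = 0.147). Without EAAE E2 replicate 1 it was -1.52 with an adjusted p of 0.00322, so this array decides the call. For the response difference, 5 of the 6 members passed the threshold with a negative difference (EAAE minus WT), against 14.8% of all genes (22.7% positive, 37.5% in all). Egr4 is among the 5, and its negative difference was bound to show, since it entered the test through its WT E2 arrays alone. For a gene that fell in WT, a positive difference can be a weaker fall in EAAE. The 4383 positive and 2863 negative differences over all genes became 3104 and 3129 with the array median.

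Counts at an unadjusted p below 0.05 in EAAE were 1 member higher, Egr2, and 1 lower, Nr4a1, in the same limma fit. EAAE E2 replicate 1 was the highest array of its group for the 5 members with a readable level there (all tested but Egr4). It also had the highest summed level of adipocyte markers (181, against 2.61 to 143 on the other 11 arrays). Its sum of macrophage markers, led by the bright gene Lyz2, was the highest in EAAE (129, against 34.2 to 69). The part of these markers in the results was not tested. Without this array the EAAE changes were -0.01 for Egr1, -0.28 for Egr3, -0.37 for Nr4a1 and -0.02 for Nr4a2, and none passed the threshold. Egr4 was below background in both EAAE groups and has no readable change there.

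**Figure D3:**
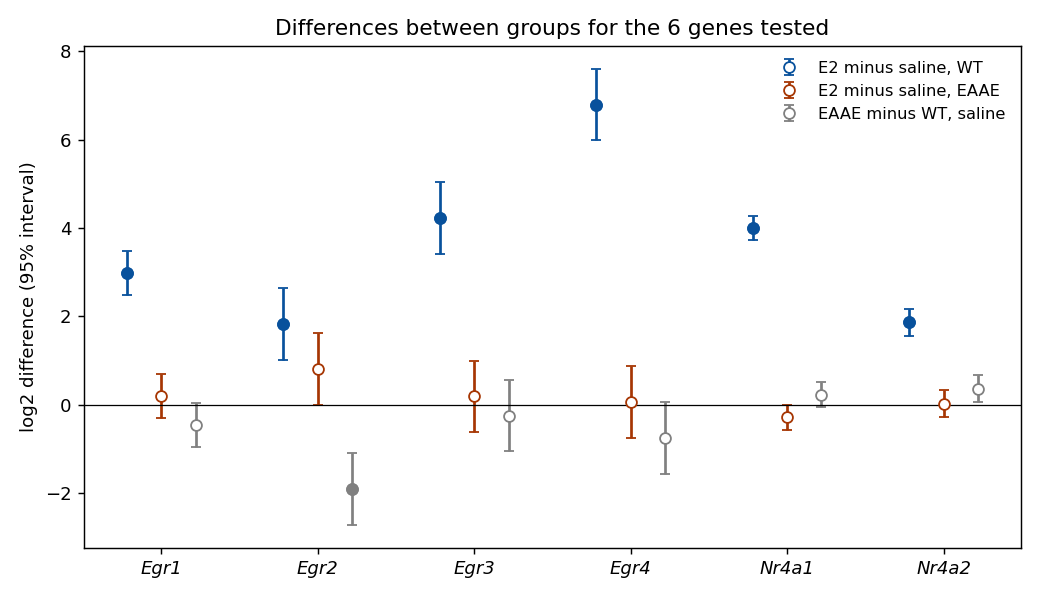
Log2 differences with unadjusted 95% intervals from the fit over 12 arrays, for the 6 genes tested. Blue is E2 minus saline in WT, dark orange is E2 minus saline in EAAE and grey is EAAE minus WT under saline, and filled points passed an adjusted p of 0.05. The blue points run from 1.83 to 6.79 and are all filled, no orange point is filled, and Egr2 at -1.90 is the only filled grey point. The Egr4 points rest on levels that were below background outside WT E2.

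**Figure D4:**
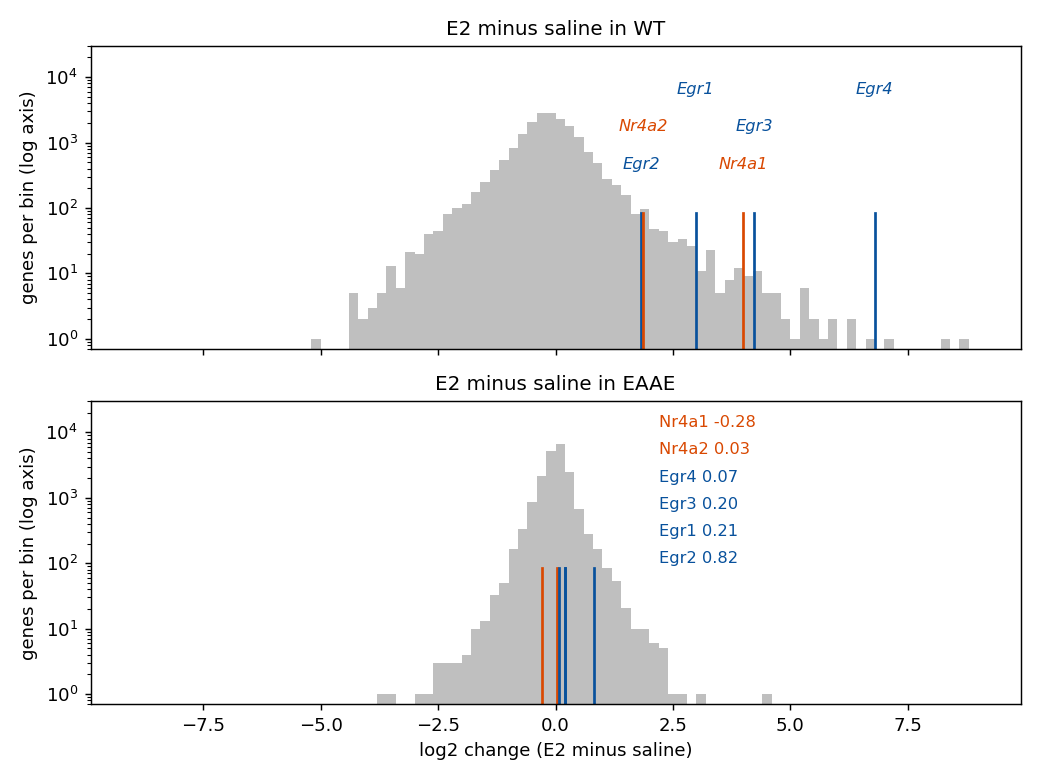
Distribution of the log2 change on E2 over the 19301 genes tested in WT (upper panel) and EAAE (lower panel), as genes per bin on a log axis. Vertical lines mark the Egr genes in blue and the Nr4a genes in orange. In WT the members lie in the upper tail, from Egr2 at 1.83 to Egr4 at a fitted 6.79, and in EAAE they lie between -0.28 and 0.82.

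Within slides the direction in WT held for all 6 members. On slides 1 and 3, which carried both WT groups, the changes were 4.12 and 3.89 for Nr4a1, 1.81 and 1.75 for Nr4a2, and 3.19 and 2.62 for Egr1. They were 1.87 and 1.45 for Egr2, 4.47 and 3.83 for Egr3 and a fitted 6.73 and 6.33 for Egr4. The EAAE groups shared slides 1 and 2. There the changes were -0.27 and -0.43 for Nr4a1, -0.11 and 0.21 for Nr4a2, 0.81 and 0.16 for Egr1, 1.99 and 0.17 for Egr2, and 1.04 and -0.31 for Egr3. The larger values for Egr1, Egr2 and Egr3 are those of slide 1, which holds EAAE E2 replicate 1. With slide as a block, the WT changes ran from 1.71 (Egr2) to a fitted 6.62 (Egr4), and the response differences were -4.38 for Nr4a1, -1.79 for Nr4a2, -2.48 for Egr1, -0.77 for Egr2 and -3.96 for Egr3.

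Before hormone, the members did not share a direction between genotypes. Egr2 was 3.72-fold lower in EAAE saline than in WT saline (log2 -1.90, SE 0.36, adjusted p = 0.00349). It was the only 1 of the 6 to pass the threshold, where 15.8% of all genes were lower and 13.7% higher (29.5% in all). Egr1 differed by -0.45 (95% interval -0.95 to 0.04, adjusted p = 0.156) and Nr4a2 by 0.37 (95% interval 0.07 to 0.67, adjusted p = 0.0609). Their arrays did not overlap, as for 24.7% of all genes on the lower and 22.4% on the higher side. Nr4a1 differed by 0.23 (adjusted p = 0.179), Egr3 by -0.24 (adjusted p = 0.654) and Egr4, below background in both groups, by a fitted -0.74 (adjusted p = 0.155).

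The Egr2 difference under saline was -2.24 on slide 1, the only slide with both saline groups, and -2.13 with slide as a block (adjusted p = 0.00674). The call was lost with position on the slide as a term (-1.53, adjusted p = 0.0615) and with slide and position together (-1.70, adjusted p = 0.255). Markers of cells in which Egr2 acts were counted as well. Under saline, 15.8% of all genes were lower in EAAE and 13.7% higher (29.5% in all). The macrophage counts are near these shares and are no result about macrophages. Of 8 macrophage markers, 2 were lower and 1 higher in EAAE saline. Cd163 went against their sum, with levels of -1.93, -3.24 and -3.09 in WT saline and -0.48, -1.22 and -0.36 in EAAE saline. The summed level, led by the bright gene Lyz2, was 107 to 169 in WT saline and 66.5 to 84.6 in WT E2. It was 34.2 to 49.9 in EAAE saline and 37 to 129 in EAAE E2. Of 9 T and natural killer cell markers, 4 were lower and none higher in EAAE saline, with sums of 1.94 to 2.07, 1.53 to 1.98, 1.35 to 1.41 and 1.53 to 1.74 in the same order of groups. Of 8 Schwann and nerve markers, 3 were higher and 1 lower. Their sums, led by Pmp22, were 19.3 to 23.1, 10.5 to 11.6, 24.6 to 25.7 and 17.2 to 22.8. The lower one was Mbp, a myelin protein (-0.47), whose second probe went the other way (0.79, adjusted p = 0.0138). A second probe of the T cell marker Cd8a (-0.36, adjusted p = 0.337) did not pass the threshold that the brighter probe passed. At most 1 marker of each of these lists was not well above background on an array, and the part of these cells in the Egr2 levels was not tested. In WT, where E2 raised Egr2, none of the macrophage, Schwann or T and natural killer cell markers rose past the threshold, and 3, 5 and 0 of them fell. Of all genes, 19.5% rose and 29.9% fell there.

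**Figure D5:**
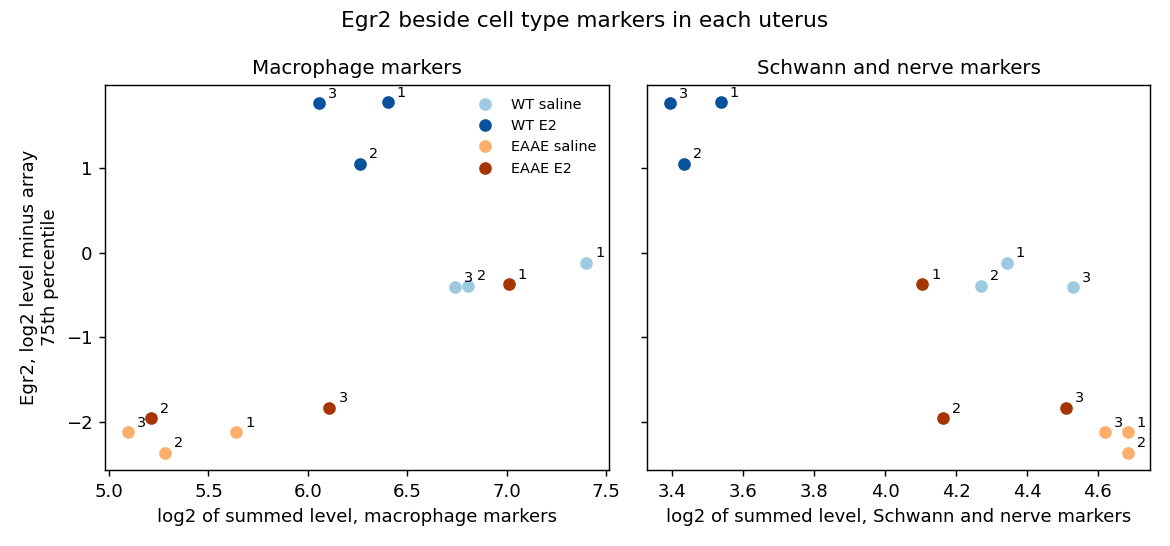
Egr2 log2 level of each uterus against the log2 of the summed level of 8 macrophage markers (left) and 8 Schwann and nerve markers (right), with the replicate number beside each point. EAAE saline arrays are lowest in Egr2 and low in the macrophage sum (34.2 to 49.9), and EAAE E2 replicate 1 is the highest EAAE array in both. The WT saline arrays have macrophage sums of 107 to 169 with Egr2 levels of -0.41 to -0.12. The WT E2 arrays are highest in Egr2 with macrophage sums of 66.5 to 84.6. Lyz2 leads the macrophage sum and Pmp22 the Schwann and nerve sum.

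After E2, all 6 members were lower in EAAE than in WT, and their arrays did not overlap, where 24.8% of all genes were lower (33.0% higher, 57.8% in all) and 27.6% did not overlap on that side. For Egr4, which entered the test through its WT E2 arrays alone, both were bound to show. The differences were -4.05 for Nr4a1 (adjusted p = 8.37e-09) and -1.46 for Nr4a2 (adjusted p = 7.15e-06). They were -3.23 for Egr1 (adjusted p = 1.0e-06), -2.90 for Egr2 (adjusted p = 6.38e-05) and -4.26 for Egr3 (adjusted p = 4.02e-06). This comparison shares its arrays with those above. Within slides 1, 2 and 3 it gave -3.96, -4.27 and -3.91 for Nr4a1, -2.99, -3.36 and -3.34 for Egr1, and -2.12, -3.72 and -2.87 for Egr2.

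WT E2 was the highest of the 4 groups for each of the 6 members, and only the step from it to the next group passed the threshold. The order below it is therefore not settled. From high to low the other means ran WT saline, EAAE E2, EAAE saline for Egr1, Egr2 and Egr3, EAAE saline, WT saline, EAAE E2 for Nr4a1, and EAAE E2, EAAE saline, WT saline for Nr4a2. The 3 lower groups of Egr4 were below background and have no order, and its top place was bound to show, since it entered the test through WT E2 alone. Steps as small as 0.04 (Egr3, WT saline to EAAE E2, SE 0.36, adjusted p = 0.954) stand among them. For Nr4a1 the step that passed was from WT E2 to EAAE saline (3.76, adjusted p = 1.42e-08), a pair of groups in which 58.3% of all genes differed. Of the steps that did not pass, those with the smallest adjusted p were from WT saline to EAAE E2 for Egr2 (1.08, SE 0.36, adjusted p = 0.0536) and from EAAE saline to WT saline for Nr4a2 (0.37, SE 0.13, adjusted p = 0.0609). Groups that were not neighbours also differed for Nr4a2: EAAE E2 was 0.41 above WT saline (adjusted p = 0.0485), where 26.0% of all genes differed.

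Transcripts of genes in the routes named above moved in part. They were measured at the same 2 h as the members, and RNA levels do not measure the activity of a route. Their part in the members' responses was not tested. The counts of the lists below stand beside the shares of all genes: 19.5% rose and 29.9% fell on E2 in WT, 1.40% passed in EAAE, and under saline 13.7% were higher and 15.8% lower in EAAE. At 1.40%, a count of 0 in EAAE is near the background for each list and is no result about it. In the list of 20 genes of the ERK and SRF route, 19 were tested, and in WT 8 rose and 3 fell, with a median of 0.22. Srf, the serum response factor itself, rose by 1.78 (SE 0.12, adjusted p = 1.93e-06) and the ERK-activating kinase gene Map2k1 by 1.82 (SE 0.15, adjusted p = 7.19e-06). In EAAE none of the 19 passed the threshold in limma, nor an unadjusted p of 0.05, and the responses of Srf (-1.84, SE 0.17, adjusted p = 3.66e-05) and Map2k1 (-1.92, adjusted p = 0.000116) differed between genotypes. Under saline, 3 of the 19 were higher in EAAE and 2 lower, among them Braf at 0.81 (adjusted p = 0.000918), whose 5 other probes ran from -0.50 to 0.93.

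Of 24 genes of the cAMP, CREB and calcium route, 23 were tested, and in WT 6 rose and 3 fell with a median of -0.03. Crem, a CREB relative that also encodes a repressor, rose by 0.74 (SE 0.09, adjusted p = 5.95e-05), Atf1, another CREB relative, by 0.75 (adjusted p = 0.000219), and Rcan1, an inhibitor of calcineurin, by 1.09 (adjusted p = 6.30e-05). Other tested probes gave 0.31 to 0.99 for Crem, 0.78 and 0.86 for Atf1 and 0.20 for Rcan1. In EAAE none passed the threshold, and at an unadjusted p below 0.05 there were 0 higher and 5 lower. The response was smaller in EAAE for Crem (-0.82, adjusted p = 0.000617), Rcan1 (-1.01, adjusted p = 0.00176) and Atf1 (-0.79, adjusted p = 0.00263), and the other Rcan1 probe gave -0.45 with an adjusted p of 0.125.

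Among 9 corepressors and partners, all tested, 3 rose and 1 fell in WT. Nab2, a corepressor that binds Egr proteins and is itself their target, rose by 2.43 (SE 0.35, adjusted p = 0.000247), and its responses differed by -3.42 (EAAE minus WT, SE 0.49, adjusted p = 0.000493). In EAAE its change was -0.99 (adjusted p = 0.199). Rxra, a partner of Nr4a1 and Nr4a2 in dimers, fell by 0.51 (adjusted p = 0.0138). A second Rxra probe gave -0.49 with an adjusted p of 0.059. In EAAE 0 of 9 passed the threshold, with 1 higher and 2 lower at an unadjusted p below 0.05. Under saline Nab1, the sister corepressor of Nab2, was 0.94 higher in EAAE (adjusted p = 0.00103).

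In WT, E2 raised 7 and lowered 2 of 12 known Egr targets. Their median change was 0.40 where the median of all genes was -0.15. The part of the Egr genes in these changes was not tested, and Nab2 is counted in the list of corepressors too. Arc, a regulator of synaptic plasticity, rose by 6.33 (SE 0.18, adjusted p = 1.62e-08), the coagulation starter F3 by 1.25 (SE 0.15, adjusted p = 6.02e-05), and Nab2 as given above. In EAAE none of the 12 passed the threshold (2 higher and 3 lower at an unadjusted p below 0.05), and Arc moved by 0.07 (adjusted p = 0.893). For the response difference 6 were lower and 1 higher, where 14.8% of all genes were lower and 22.7% higher. After E2 9 were lower in EAAE and none higher, where 24.8% of all genes were lower and 33.0% higher. Under saline 5 were lower and none higher, led by Fasl, a death ligand of lymphocytes (-0.79, SE 0.14, adjusted p = 0.0025, but -0.69 with an adjusted p of 0.266 at its second probe), Bax, a driver of apoptosis (-0.39, adjusted p = 0.00935), and F3 (-0.56, adjusted p = 0.0155).

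Of 12 known Nr4a targets 8 were tested, of which E2 raised 1 and lowered 4 in WT (median -0.54). Over all genes falls were more frequent than rises too (29.9% against 19.5%), an excess that turned with the array median. Pomc, the pituitary hormone precursor, fell by 0.72 (SE 0.12, adjusted p = 0.000766), Ikzf2, a lymphocyte transcription factor, by 1.04 (adjusted p = 0.00126), and Star, which carries cholesterol into mitochondria, by 0.76 (adjusted p = 0.00379). Other probes gave -1.94 to -0.39 for Ikzf2 and -1.36 for Star. The gene that rose was Ccnd2, a cyclin of early cell cycle (0.48, SE 0.11, adjusted p = 0.00546). In EAAE none of the 8 passed the threshold (1 higher at an unadjusted p below 0.05). Under saline Ccnd2 was 1.87 higher in EAAE (SE 0.11, adjusted p = 3.01e-06), and 2 of the 8 were higher and 3 lower. The part of the Nr4a genes in the changes of this list was not tested.

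Genes whose levels followed a member most closely over the 12 arrays differed between the members. Likeness is Pearson's r of the normalized log2 levels, which here mostly follows the group means, and the 3 highest among the tested genes with a symbol are named. For Nr4a1 they were the cytokine signalling inhibitor Socs1 (r = 0.997), the immediate early gene Ier2 (0.996) and the MAP kinase phosphatase Dusp1 (0.996), which rose in WT by 4.08, 2.97 and 2.59. A dimmer Ier2 probe gave 0.95. For Egr3 they were the polo-like kinase Plk2 (0.984), Arc (0.984) and the AP-1 subunit Fos (0.983), with WT rises of 4.11, 6.33 and 5.43. Egr4 shared Plk2 (0.994) with it, followed by the stress cytokine Gdf15 (0.992) and the transporter Slc16a6 (0.992), which rose by 5.97 and 1.44.

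For Nr4a2 the closest were Phf13 (0.991), a chromatin reader, Klf16 (0.990), a zinc finger factor, and Epas1 (0.987), a hypoxia-inducible factor, with WT rises of 1.28, 1.99 and 1.73. Egr1 lay closest to Mrm3 (0.989), Slc16a6 (0.988) and Trmt10c (0.987), of which Mrm3 and Trmt10c encode mitochondrial RNA methyltransferases and rose by 0.96 and 1.18. For Egr2 the closest were the interferon-inducible GTPase gene Gvin1 (0.990), the aminopeptidase gene Lap3 (0.976) and the lipase gene Abhd2 (0.970). These rose in WT by 0.89, 0.28 and 0.50. Other probes gave 0.53 and 0.34 for Gvin1, 0.32 and 0.18 for Lap3 and 0.37 and 0.73 for Abhd2.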

How the data were processed

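RNA of 12 uteri was measured on single-colour Agilent arrays. The authors extracted spots with Agilent Feature Extraction, version 9.5.3.1 per the file headers and 9.5 per the submitters' processing notes. Per the file headers, the processed signal that they deposited is linear intensity with background removed array by array, and coordinates are mm7. The deposited series table held equal intensity values (relative tolerance 1e-06) on 520548 of 520548 spots that were no controls, so it is linear and uncentred, with medians of 162.5 to 249.5.

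Control spots and 56 to 117 outlier spots per array were dropped. Deposited intensity was taken to log2, averaged over the spots of a probe, and scaled by subtracting the array's 75th percentile. With arrays, precision is set by how many mice were used. A probe was tested (29017 of 41174) if some group had it well above background on all its arrays, and the brightest stood for its gene. RefSeq symbols replaced the file's names for 22951 probes by systematic accession, for 131 by a further accession, for 6582 by symbol and for 3073 by synonym. The file's name stayed for 8152 and 285 were unnamed. limma 3.58.1 (lmFit, eBayes, R 4.3.3) was fitted to all 12 arrays, 2-sided and without covariates, and checked on simulated data. Python 3.11.15, numpy 2.4.6, pandas 2.3.3 and matplotlib 3.10.9 made tables and plots.

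Named genes are the 7 members, Esr1, up to 3 genes of each list by smallest p, and the 3 genes most like each member. Some list genes this rule picks are not reported here. Members and lists were chosen with earlier results of these data known. Alternatives varied scaling, background correction, source table, probe filter, probe summary, slide, position, replicate number and the arrays in the fit, and left out each array in turn.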

Additional observations from a re-analysis of the deposited data

Results flagged for a closer look

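The response to E2 differed between genotypes by the interaction test of limma (EAAE minus WT, log2) for 5 members. The difference was -4.28 for Nr4a1 (95% interval -4.66 to -3.89), -1.84 for Nr4a2 (-2.26 to -1.41), -2.78 for Egr1 (-3.48 to -2.08), -4.03 for Egr3 (-5.16 to -2.89) and a fitted -6.72 for Egr4, which was below background outside WT E2. Of all genes, 14.8% passed the threshold with a negative difference and 22.7% with a positive one. In each of the 5 the 3 WT E2 arrays lay above all 9 others, and the share of all genes for which this holds was not counted. For Egr4, which entered the test through its WT E2 arrays alone, both results were bound to show.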

How the results depend on the processing

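Over 24 alternatives, 12 of which left out 1 array, the 6 WT rises and the 6 lower levels after E2 in EAAE kept their direction and their call, and no member passed the threshold for E2 in EAAE. The filter for probes well above background on all 12 arrays drops Egr4, so counts of 6 became 5 there. In the main setting Egr4 entered the test through its WT E2 arrays alone, so its calls were bound to show. WT changes ranged from 3.95 to 4.13 for Nr4a1, 1.76 to 2.01 for Nr4a2, 2.74 to 3.16 for Egr1, 1.71 to 2.07 for Egr2, 3.35 to 4.43 for Egr3 and a fitted 4.32 to 7.09 for Egr4. The response differences of Nr4a1, Nr4a2, Egr1, Egr3 and Egr4 kept their call (Egr4 in all 23 alternatives that tested it), and their count was 4 to 6.

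Under saline, 1 member was lower in EAAE in the main setting. That count was 0 with position as a linear term, 0 with slide and position, and 2 with only the arrays of the groups compared, where Egr1 (-0.45) had an adjusted p of 0.0464. The count of higher members ran from 0 to 1 over the fits without 1 array, since Nr4a2 (0.49, adjusted p = 0.0254) passed without EAAE saline replicate 1. The adjusted p of Egr2 under saline ranged from 0.000113 to 0.255, and that of its response difference from 0.00322 to 0.279. The cause was not tested.

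Counts over all genes moved more. For E2 in EAAE, the 133 higher and 138 lower genes became 37 to 175 and 25 to 206 without 1 array. They became 12 and 12 with position, 4 and 3 with slide and position, 77 and 74 with slide as a block, 76 and 51 without the filter on dim probes, and 5 and 2 with only the arrays compared. With the array median, 75 were lower. Under saline, the 2635 higher and 3055 lower became 218 and 198 with slide and position, 1480 and 1506 with position, and 1645 and 1976 with slide as a block. After E2, 6371 and 4779 became 2861 and 2334 with slide and position and 4158 and 3150 with position. The 5773 lower genes in WT became 3730 with slide and position.

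Whether replicate numbers pair the arrays is not settled. Deviations of same-numbered arrays of different groups correlated only from -0.28 to 0.27 (18 pairs), but 7 of 12 arrays correlated best with an array of their own number. With the replicate block no call of a member changed (Egr2 response difference -1.01, adjusted p = 0.0849), and for E2 in EAAE 79 genes were higher and 65 lower. Members near or under background (Egr4 outside WT E2, the dimmer Egr3 probe, Nr4a3) have bounds or no value, whatever the setting.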
